A study of Mus musculus with 8 samples.

Results

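The 10 genes described here carry the insulin signal from the cell surface to the nucleus. They were the insulin receptor Insr, the insulin receptor substrates Irs1 and Irs2, the phosphoinositide 3-kinase (PI3K) subunits Pik3r1, Pik3r3 and Pik3ca, the kinases Akt1 and Akt2, and the transcription factors Foxo1 and Foxo3. They were taken by symbol from a count table of 27179 genes, and all 10 were among the 14966 genes with enough counts to test. The table held RNA-seq counts from neonatal cardiomyocytes (NCMs) of male C57Bl/6 J mice on the day of birth (PND0). Dams had breathed filtered air (FA, 4 libraries, replicates 2, 3, 4 and 6) or diesel exhaust (DE, 4 libraries, replicates 1, 3, 5 and 7) from E0.5 to E17.5. Each library came from the heart of 1 pup, trimmed of atria and vessels, and the cells were held on a plate for a time so that fibroblasts could attach and be left behind. The sources used here do not say which pups shared a litter, so the p-values measure the spread between hearts. The comparison asks whether exposure in utero changed the expression of this pathway at birth.

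Insulin binds its receptor, a tyrosine kinase, which phosphorylates the IRS adaptors. The adaptors recruit PI3K, a dimer of a regulatory and a catalytic subunit, and the lipid that PI3K makes brings Akt to the membrane, where it is activated. Akt in turn keeps FoxO factors out of the nucleus, and in heart muscle the same pathway supports glucose uptake and growth. Activity along this pathway is set largely by phosphorylation, which RNA counts do not measure.

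Libraries held between 17943024 and 39839737 counts, and the smallest count of any of the 10 genes in any library was 290, for Foxo3. The summed level of 7 cardiomyocyte markers was high throughout, between 58900 and 64610 CPM (counts scaled to the size of the library) in FA and between 44600 and 52380 CPM in DE, without overlap. Without Myh6, a myosin heavy chain that fell from 23300 to 14620 CPM (adjusted p = 0.00315), the other 6 overlapped, at 35790 to 40480 CPM in FA and 30050 to 36950 CPM in DE. The summed level of 7 fibroblast markers ran from 1722 to 3029 CPM in FA and from 3221 to 5233 CPM in DE, without overlap also when its most abundant gene, Col3a1, was left out (1045 to 1780 and 2010 to 3124 CPM), and no marker gene was at 0 in all libraries. In RNA from a mixed cell pellet, fewer cells of a type and less RNA per cell cannot be told apart, and the part of these shifts in the results below was not tested. The sample names of DE replicates 3 and 5 carry the number 12 and all other names the number 11, with no meaning given. DE values are therefore also given by this number where it matters. No FA name carries 12, so a fit with this number as a term draws its difference from the libraries named 11. That fit and the fit on libraries named 11 alone are the same contrast, not separate checks.

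To show what kind of control sequence these genes start from, 250 bases before an annotated RefSeq start were read on GRCm38.p6 for the 9 of 10 genes with an entry, and both strands were searched for the FoxO-type motif TGTTTAC, the insulin-response core TGTTTTG and the E-box CACGTG. Over all 32851 such windows the shares with a match were 3.17%, 5.56% and 6.02%. Some genes have more than 1 start, and the 9 genes had 16 windows, of which 1, 2 and 2 held a match. The windows below run 5′ to 3′ on the strand of the gene, with matches in capitals. Irs1 (chr1:82291440-82291689, minus strand) and Irs2 (chr8:11008930-11009179, minus strand) are shown because the windows of both adaptors hold an E-box next to an insulin-response core. Akt1 (chr12:112674885-112675134, minus strand) holds a FoxO-type motif in the window shown, 1 of its 2 windows. Pik3r3 (chr4:116221166-116221415, plus strand), the only member called changed below, holds none of these motifs in any of its 3 windows, of which 1 is shown.
Irs1: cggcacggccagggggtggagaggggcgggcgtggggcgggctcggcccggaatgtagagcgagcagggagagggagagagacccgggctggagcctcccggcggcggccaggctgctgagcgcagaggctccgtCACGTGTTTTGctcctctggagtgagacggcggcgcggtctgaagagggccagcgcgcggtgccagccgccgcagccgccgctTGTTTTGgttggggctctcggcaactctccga
Irs2: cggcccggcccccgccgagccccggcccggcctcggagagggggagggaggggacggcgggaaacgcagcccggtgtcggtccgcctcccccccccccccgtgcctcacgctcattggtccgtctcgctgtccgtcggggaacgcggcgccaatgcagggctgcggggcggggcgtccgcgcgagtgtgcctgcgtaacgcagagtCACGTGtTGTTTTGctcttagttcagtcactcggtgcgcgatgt
Akt1: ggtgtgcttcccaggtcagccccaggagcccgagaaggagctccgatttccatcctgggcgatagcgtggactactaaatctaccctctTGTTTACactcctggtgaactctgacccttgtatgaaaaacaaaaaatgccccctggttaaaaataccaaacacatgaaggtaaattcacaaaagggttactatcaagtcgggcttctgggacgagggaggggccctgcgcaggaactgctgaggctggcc
Pik3r3: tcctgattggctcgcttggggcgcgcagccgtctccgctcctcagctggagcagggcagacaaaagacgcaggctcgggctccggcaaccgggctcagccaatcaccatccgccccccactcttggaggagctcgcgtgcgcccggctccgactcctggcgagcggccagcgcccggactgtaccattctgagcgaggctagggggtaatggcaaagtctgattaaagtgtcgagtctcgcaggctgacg
In Irs1 the E-box lies 115 to 110 bases before the start and shares 2 bases with the first insulin-response core, and a second core lies 32 to 26 bases before it. In Irs2 the E-box lies 44 to 39 bases and the core 37 to 31 bases before the start. A match is a description of the letters, not of binding.

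The genes differed widely in level. Per length of transcript (counts per kilobase, scaled to the same sum in each library), Akt1 was highest at 238 ± 12.4 in FA (SD, n = 4), and its lowest library lay above the highest library of every other member. Insr followed at 71.3 ± 16.4 and Akt2 at 60.3 ± 5.04, and the FA libraries of these genes overlapped. Irs1 (32.2 ± 7.26), Pik3ca (28.5 ± 4.70), Irs2 (27.6 ± 10.7), Pik3r1 (27.1 ± 5.79) and Pik3r3 (25.3 ± 3.60) formed a band in which neighbours did not differ beyond the spread between libraries. Foxo1 averaged 14.8 ± 3.08, and Foxo3 was lowest at 5.54 ± 1.56. In DE the order was the same at both ends, with Akt1 at 241 ± 14.7 and Foxo3 at 5.14 ± 2.33. The DE mean of Akt2 (56.3 ± 2.35) lay above that of Insr (46.5 ± 12.5), and their libraries overlapped. Pik3r3 (16.7 ± 2.81) lay below Pik3r1 (32.1 ± 10.1), as it did in the FA means.

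**Figure D1:**
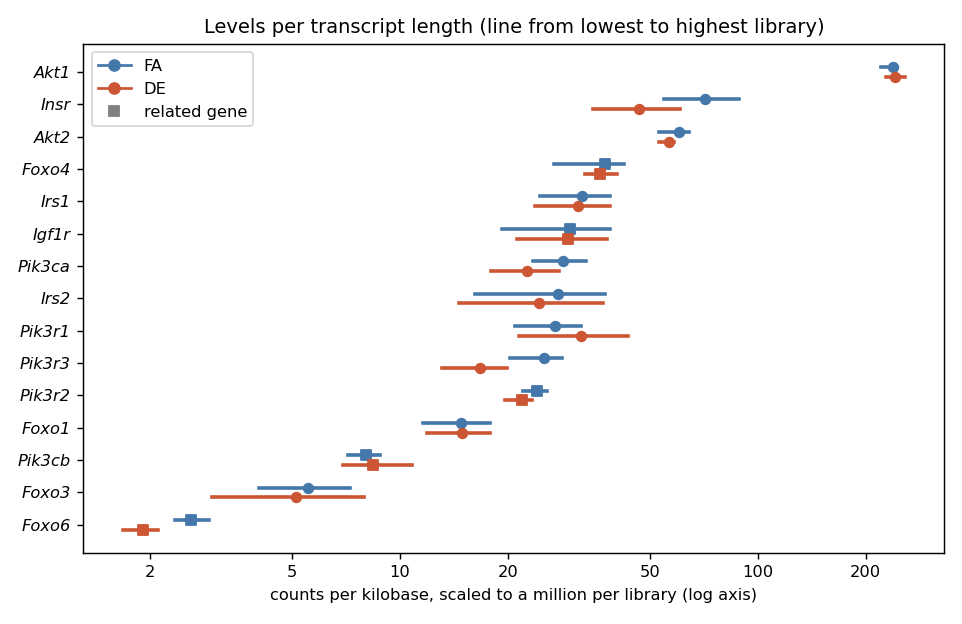
Level per transcript length of the 10 genes (circles) and of 5 related genes (squares) in FA and DE, on a log axis, with the point at the group mean and the line from the lowest to the highest of 4 libraries. Akt1 stands alone at the top, and the lines of Irs1, Irs2, Pik3ca, Pik3r1 and Pik3r3 overlap in FA.

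Among the 10 genes, only Pik3r3 changed by the rule used across the whole table, edgeR's quasi-likelihood test with a Benjamini-Hochberg adjusted p of 0.05 or less and a difference of at least 25%. Across all tested genes 5.8% were called, 2.22% lower and 3.58% higher in DE, so 1 of 10 is a share near the background. At an unadjusted p under 0.05, 3 of the 10 were lower in DE (Insr, Pik3r3 and Pik3ca) and none was higher, against 12.2% of all genes lower. The log2 fold change was below 0 for 9 of the 10 and above 0 for Pik3r1, with a median of -0.14 against 0.004 over all tested genes. Scaling by library totals alone moved the median of all genes to 0.0755, and Irs1 (0.003), Akt1 (0.056) and Foxo1 (0.053), then above 0, still lay below that median. The 10 genes have long transcripts, with a median of 7483 bases against 3362 over all tested genes. A trend of the counts on length and GC content, fitted in each library over the 13851 tested genes with a known length and GC content, gave a median difference of -0.13 for the 10 genes and 0.016 over all those fitted.

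**Figure D2:**
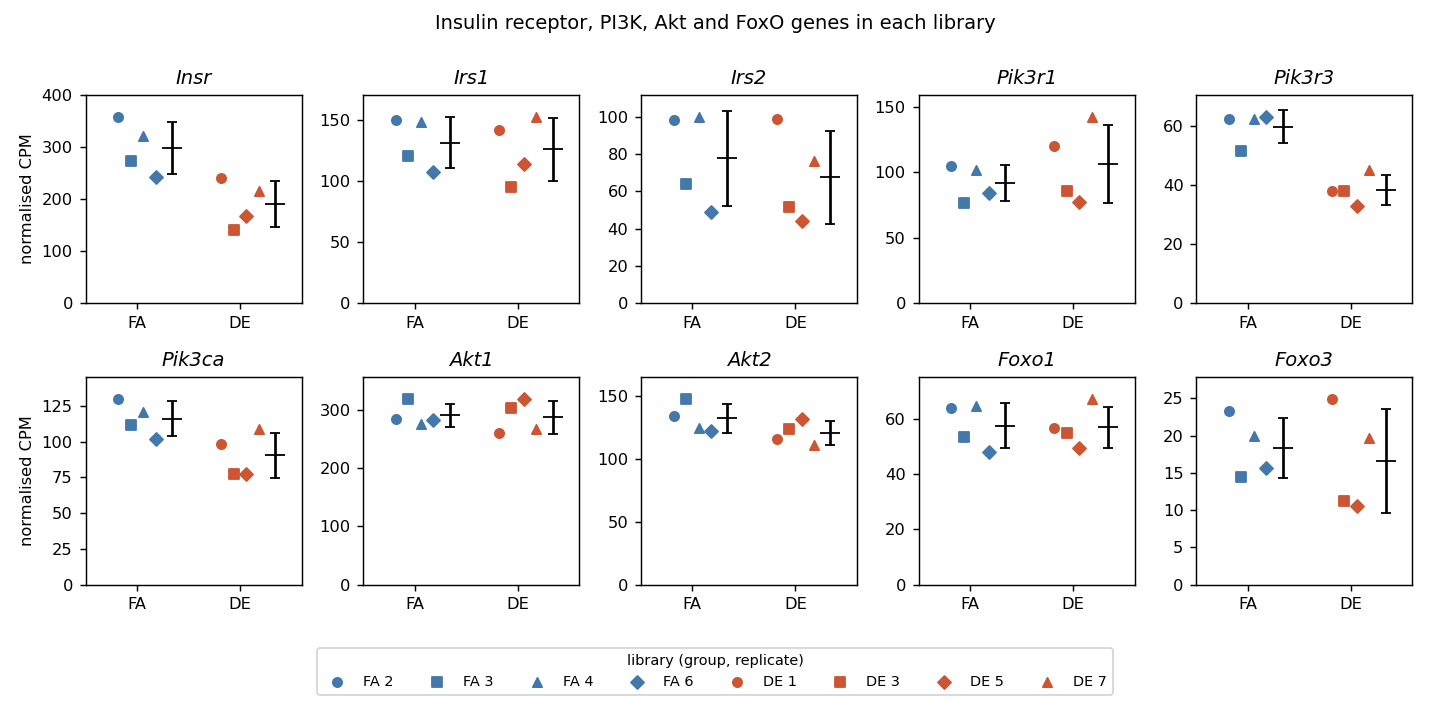
Normalised CPM of each gene in each library (points, shaped by replicate) for FA and DE, with the mean and SD of 4 libraries as a bar beside them; each axis starts at 0. FA and DE points do not overlap for Insr and Pik3r3 and overlap for the other 8 genes.

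**Figure D3:**
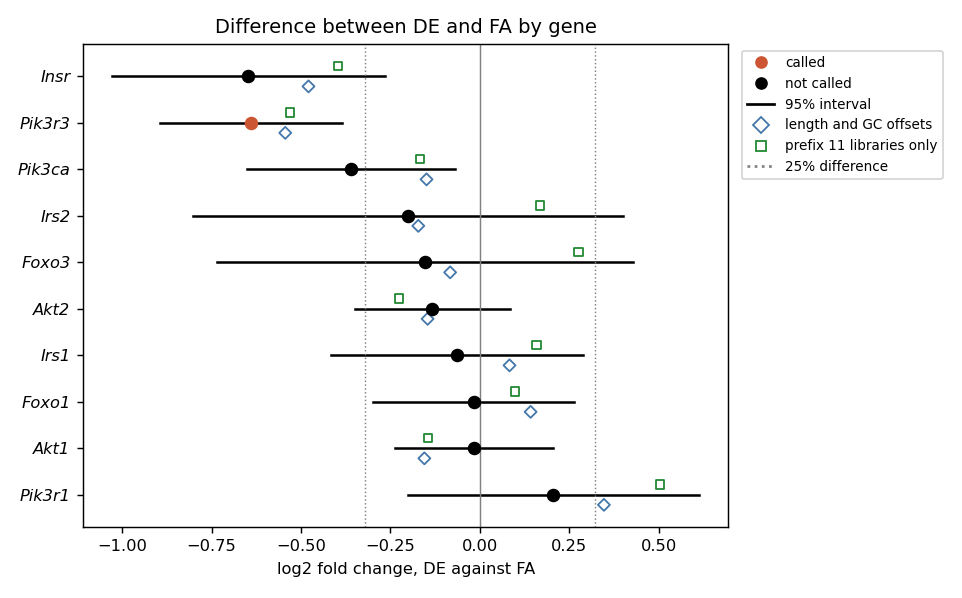
Log2 fold change of DE against FA for each gene (filled points) with its 95% interval, and the same difference after length and GC correction (open diamonds) or among libraries named 11 only (open squares); dotted lines mark a 25% difference. The intervals of Insr, Pik3r3 and Pik3ca lie below 0, and only Pik3r3 was called.

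Insr, the receptor at the head of the pathway (chr8:3150922-3279649 on GRCm38.p6), was measured at 358, 273, 322 and 243 CPM in FA replicates 2, 3, 4 and 6. The DE replicates 1, 3, 5 and 7 held 240.5, 141, 167 and 215 CPM. The lowest FA library lay just above the highest DE library, so the groups did not overlap, as was so for 7.26% of all genes in this direction. The FA mean of 299 ± 50.8 CPM stood against a DE mean of 191 ± 44.9 CPM (SD, n = 4), a log2 fold change of -0.65 (SE 0.17, 95% interval -1.03 to -0.27). The adjusted p of 0.0518 missed the threshold. Over 20 alternative analyses the adjusted p ran from 0.00932 to 0.295, and Insr passed in 8 of them, among them the fits without FA replicate 6 (adjusted p = 0.0449) and without DE replicate 1 (adjusted p = 0.0255). The 2 DE libraries named 11 averaged 228 CPM and the 2 named 12 averaged 154 CPM. With the libraries named 11 alone the log2 fold change was -0.40 with an adjusted p of 0.246 by the same edgeR test. The length and GC trend gave Insr a difference of -0.18, and with that trend taken out the log2 fold change was -0.48 with an adjusted p of 0.0096.

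The related receptor Igf1r, which binds insulin-like growth factor, averaged 152 ± 38.5 CPM after FA and 147 ± 41.7 CPM after DE (log2 fold change -0.06, SE 0.22, adjusted p = 0.898). The ratio of Insr to Igf1r counts within a library needs no scaling between libraries. It was 1.96, 1.99, 1.74 and 2.32 in FA and 1.35, 1.34, 1.44 and 1.15 in DE. Every FA ratio was above every DE ratio, also within the libraries named 11. The mean log2 ratio was 0.99 ± 0.17 in FA and 0.40 ± 0.14 in DE, a difference of -0.60, with an exact two-sided permutation p of 0.0286, the smallest that 4 against 4 libraries allow. Adjusted over the 5 ratios compared, this p was 0.0715.

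The IRS adaptors, which dock PI3K at the activated receptor, showed no call. Irs1 (chr1:82233105-82291439) ranged from 107 to 150.4 CPM in FA and from 95.6 to 152 CPM in DE, with a log2 fold change of -0.06 (95% interval -0.42 to 0.29, adjusted p = 0.83). The ranges overlapped almost wholly. Irs2 (chr8:10984681-11008929) was at 98.1, 63.8, 99.7 and 48.8 CPM in FA and at 98.8, 51.6, 43.9 and 76.1 CPM in DE. Libraries of both groups were high and low, and the log2 fold change of -0.20 had a 95% interval of -0.80 to 0.40 (adjusted p = 0.674). Both 95% intervals leave room for a level 25% lower in DE. An uncharacterised gene that overlaps Irs2 held 10 counts in all. The log2 ratio of Irs1 to Irs2 was 0.81 ± 0.27 in FA and 0.95 ± 0.35 in DE (exact permutation p = 0.6).

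Pik3r3 encodes p55γ, a regulatory subunit that tethers the catalytic subunit to tyrosine-phosphorylated proteins (chr4:116221400-116303056). It was at 62.4, 51.7, 62.7 and 63.1 CPM in FA replicates 2, 3, 4 and 6 and at 38.1, 38.0, 32.8 and 45.3 CPM in DE replicates 1, 3, 5 and 7. All 4 DE libraries lay below all 4 FA libraries, and the means of the DE libraries named 11 (41.7 CPM) and 12 (35.4 CPM) both did. Pik3r3 fell from 59.97 ± 5.54 to 38.6 ± 5.13 CPM (SD, n = 4), a log2 fold change of -0.64 (SE 0.12, 95% interval -0.90 to -0.38, adjusted p = 0.0125). FA was 1.56 times DE. The call held whichever library was left out (adjusted p from 0.0108 to 0.0488) and after length and GC correction (-0.54, adjusted p = 0.00265). It was lost with a 25% difference built into the test (adjusted p = 0.122), with the name number as a term (-0.53, adjusted p = 0.0533) and among libraries named 11 (-0.53, adjusted p = 0.0755). The study itself listed Pik3r3 among changed genes of these libraries, so its choice is not independent of them.

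Pik3r1 encodes p85α, the most studied regulatory subunit (chr13:101680761-101768217). It was at 105, 76.8, 102 and 84.1 CPM in FA and at 119.8, 85.5, 77.5 and 142 CPM in DE. DE replicates 1 and 7 were the highest of all and DE replicates 3 and 5 lay within the FA range. The log2 fold change was 0.21 (SE 0.19, 95% interval -0.20 to 0.61, adjusted p = 0.509). After length and GC correction it was 0.35 with an adjusted p of 0.0359, which passed the threshold. Without DE replicate 7 it was 0.03 (adjusted p = 0.926), with the name number as a term 0.51 (adjusted p = 0.0777) and among libraries named 11 it was 0.50 (adjusted p = 0.115).

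Because Pik3r3 and Pik3r1 compete for the same catalytic partners, their counts were set against each other within each library. The ratio of Pik3r3 to Pik3r1 counts, not corrected for length, was 0.595, 0.673, 0.617 and 0.75 in FA and 0.318, 0.444, 0.423 and 0.319 in DE. The groups did not overlap, and the lowest ratios were in DE replicates 1 and 7. The log2 ratio was -0.61 ± 0.15 in FA and -1.43 ± 0.26 in DE. The difference was -0.82 (exact permutation p = 0.0286, adjusted over the 5 ratios p = 0.0715). This ratio uses the same Pik3r3 counts as the call above, so its p-value is not separate support for a change.

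**Figure D4:**
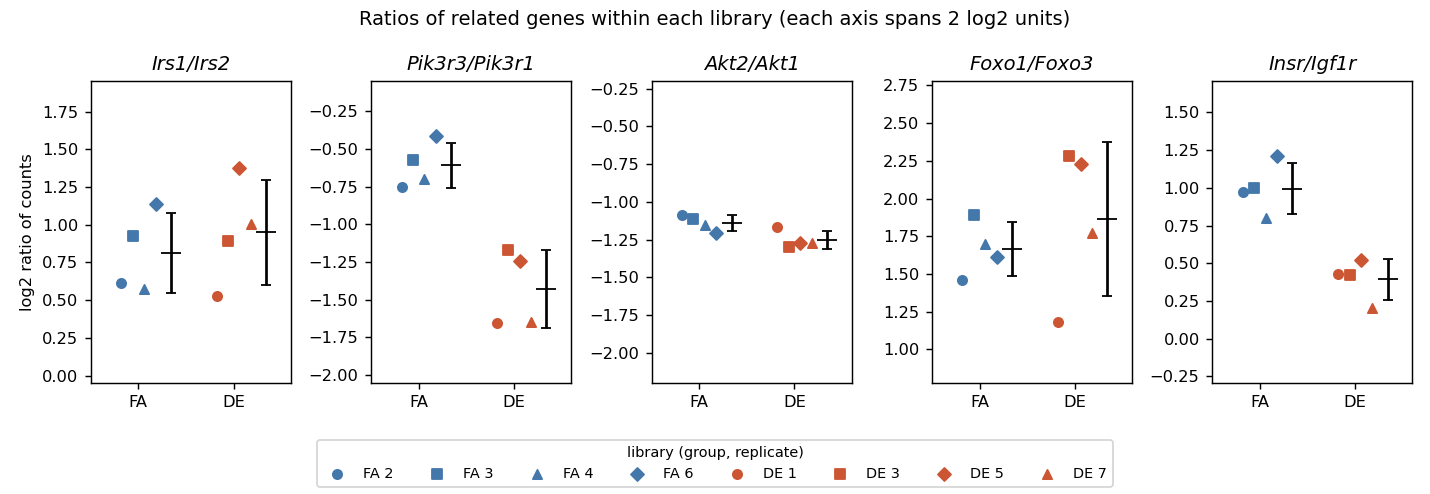
Log2 ratio of counts of 5 gene pairs within each library (points, shaped by replicate) in FA and DE, with the mean and SD of 4 libraries as a bar beside them; each axis spans 2 log2 units. The groups do not overlap for Pik3r3/Pik3r1 and Insr/Igf1r and overlap for the other pairs.

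Pik3ca encodes p110α, the catalytic subunit that insulin signalling uses most (chr3:32397065-32466112). It was at 129.8, 112, 121 and 102 CPM in FA and at 98.5, 77.0, 77.7 and 109 CPM in DE. DE replicate 7 lay above FA replicate 6, so the groups overlapped. The mean was 116 ± 12.1 CPM in FA and 90.5 ± 15.8 CPM in DE, with a log2 fold change of -0.36 (SE 0.13, 95% interval -0.65 to -0.07, adjusted p = 0.123). The fitted length and GC trend was -0.23 on the same scale, and the difference with that trend taken out was -0.15 (adjusted p = 0.282). With the name number as a term the difference was -0.16 (adjusted p = 0.532), and among libraries named 11 it was -0.17 (adjusted p = 0.586). Kcnmb3, which overlaps Pik3ca, held 39 counts in all.

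Akt1 and Akt2, the kinases that carry most of the signal onward, showed no call. Akt1 (chr12:112653821-112674884) averaged 290.0 ± 19.1 CPM in FA and 287 ± 28.2 CPM in DE, with a log2 fold change of -0.02 (95% interval -0.24 to 0.21, adjusted p = 0.939), an interval that lies within a 25% difference either way. Akt2 (chr7:27591552-27640826), the form linked most closely to glucose uptake, averaged 132 ± 11.5 CPM in FA and 120.2 ± 9.21 CPM in DE (log2 fold change -0.13, 95% interval -0.35 to 0.09, adjusted p = 0.421). The ratio of Akt2 to Akt1 counts was 0.454 ± 0.0166 in FA and 0.42 ± 0.0176 in DE (log2 difference -0.11, exact permutation p = 0.0571). With the length and GC trend taken out, the difference in this ratio was 0.01.

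Foxo1 (chr3:52268337-52350109) is the FoxO factor best known in metabolism. Its values ran from 47.9 to 64.8 CPM in FA and from 49.3 to 67.2 CPM in DE, and the log2 fold change of -0.02 had a 95% interval of -0.30 to 0.26 (adjusted p = 0.95), within a 25% difference either way. Foxo3 (chr10:42181845-42276695), a factor tied to stress resistance and muscle protein breakdown, was at 23.3, 14.5, 20.0 and 15.6 CPM in FA and at 24.9, 11.3, 10.5 and 19.7 CPM in DE. The highest and the lowest library of all 8 were both DE. The log2 fold change was -0.15 (95% interval -0.74 to 0.43, adjusted p = 0.746), and the ratio of Foxo1 to Foxo3 gave an exact permutation p of 0.486.

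Within each group, 7 of the 10 genes shared an order of libraries. Insr, Irs1, Irs2, Pik3r1, Pik3ca, Foxo1 and Foxo3 were higher in FA replicates 2 and 4 than in FA replicates 3 and 6. They were also higher in DE replicates 1 and 7 than in DE replicates 3 and 5. For Insr the fitted length and GC trend ran the same way, with 0.29 and 0.27 in FA replicates 2 and 4, -0.15 and -0.05 in FA replicates 3 and 6, 0.13 and 0.09 in DE replicates 1 and 7, and -0.27 and -0.33 in DE replicates 3 and 5. For Irs2 it was 0.13 and 0.11 in FA replicates 2 and 4, -0.07 and -0.10 in FA replicates 3 and 6, 0.10 and -0.03 in DE replicates 1 and 7, and -0.02 and -0.11 in DE replicates 3 and 5. The mean of Irs2 was 87.5 CPM in DE libraries named 11 and 47.7 CPM in those named 12, with 77.6 CPM in FA. For Foxo3 the same means were 22.3, 10.9 and 18.3 CPM. The part of this trend in the results was not tested beyond the correction given. How many of all tested genes shared the order of libraries above was not counted. The order is therefore not shown to be particular to these genes. Over the whole table, FA replicates 2 and 4 were the FA pair most alike (chi-square per gene 5.06, other FA pairs 18.4 to 43.2). DE replicates 1 and 7 were the DE pair most alike (16, other DE pairs 20.2 to 62.8).

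Over the 8 libraries, the log2 CPM of Pik3r3 correlated closely with that of Brox (Pearson r = 0.988) and Rbm12b2 (r = 0.986), which were among the 3 most like it of 9189 tested genes averaging 10 CPM or more. All 8 libraries share the difference between exposures, so these are descriptions of likeness.

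Around the 10 genes, 86 other genes of the pathway were listed and 82 were tested. Of these, 8 were called, 6 lower and 2 higher in DE, a share of 9.76% against the 5.8% of all genes. The balance changed with the analysis, to 2 lower and 4 higher with the name number as a term, 2 lower and 3 higher among libraries named 11, 5 lower and 4 higher with scaling by totals, and 13 lower and 2 higher with length and GC offsets. At an unadjusted p under 0.05, 20 were lower and 7 higher, 32.9% in all, against 25.6% of all tested genes (12.2% lower and 13.4% higher). Their median log2 fold change was -0.095, against 0.004 over all tested genes. The list was chosen with earlier results of these data known, and the study itself named Cat among its changed genes. These shares and this median are therefore not independent of the data. Among 15 tested receptor partners and brakes none was called, and only Gab1, an adaptor, had an unadjusted p under 0.05. Grb10, an inhibitor that binds the receptor, was at a log2 fold change of 0.05 (adjusted p = 0.731), and Ptprf, a receptor-like phosphatase, was at 0.19 (adjusted p = 0.347).

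Among 13 other PI3K subunits and lipid phosphatases, 2 fell and none rose. Inpp4b, a phosphatase of PI3K lipid products, fell from 17.6 ± 3.26 to 8.99 ± 3.14 CPM (log2 fold change -0.98, SE 0.23, adjusted p = 0.0349). This call was lost without FA replicate 2, 3 or 4 or DE replicate 3 or 5 (adjusted p up to 0.108), with a 25% difference built into the test (adjusted p = 0.155), with the name number as a term (-0.59, adjusted p = 0.0884) and among libraries named 11 (-0.59, adjusted p = 0.119). Inpp5d, a phosphatase best known from blood cells, fell from 10.2 ± 1.19 to 7.07 ± 0.987 CPM (-0.53, SE 0.14, adjusted p = 0.0482). The call for Inpp5d was lost in 14 of 20 alternative analyses. It was lost whichever library was left out (adjusted p from 0.0541 to 0.131), and with upper-quartile scaling (adjusted p = 0.0627), scaling by totals (adjusted p = 0.0839) or no filter (adjusted p = 0.0609). It was also lost with the built-in difference (adjusted p = 0.375), with the name number as a term (-0.54, adjusted p = 0.118) and among libraries named 11 (-0.55, adjusted p = 0.112). The summed level of 6 leukocyte markers was 11.8 to 17.9 CPM in FA and 14.6 to 25.3 CPM in DE. Without Cd68, the most abundant of them, it was 5.2 to 7.2 CPM in FA and 5.1 to 8.9 CPM in DE. The part of leukocytes in the level of Inpp5d was not tested. The regulatory subunit Pik3r2 was at -0.18 (adjusted p = 0.276) and the catalytic subunit Pik3cb at 0.03 (adjusted p = 0.91). With length and GC offsets Pik3r2 was at -0.316 (edgeR adjusted p = 0.0169), short of the 25% difference that the rule asks for.

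Among 14 other Akt kinases, regulators and substrates, 1 fell. Tbc1d4, the Akt substrate that holds glucose transporters inside the cell, fell from 99.1 ± 10.7 to 71.8 ± 6.49 CPM (-0.47, SE 0.11, adjusted p = 0.0328). Its call was lost without FA replicate 2 or 4 or DE replicate 3 or 5 (adjusted p up to 0.112), with a 25% difference built into the test (adjusted p = 0.425), with the name number as a term (-0.36, adjusted p = 0.139) and among libraries named 11 (-0.36, adjusted p = 0.188). The transporter Slc2a4 (GLUT4) was at 0.03 (adjusted p = 0.873) and the Akt substrate Gsk3b at -0.13 (adjusted p = 0.626). Pdpk1, the kinase that activates Akt, averaged 118 ± 20.4 CPM after FA and 82.5 ± 20.7 CPM after DE, a log2 fold change of -0.52 that missed the threshold (adjusted p = 0.108). Pdpk1 passed it with length and GC offsets (-0.38, adjusted p = 0.0246) and was at -0.24 with the name number as a term (adjusted p = 0.458).

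Among 16 genes of the mTOR complexes and outputs, 1 fell and 1 rose, with a median of -0.24. Mtor, the kinase of both mTOR complexes, fell from 95.1 ± 14.2 to 64.5 ± 4.55 CPM (-0.56, SE 0.12, adjusted p = 0.0231). The Mtor call was lost without those same 4 libraries, each in turn (adjusted p up to 0.0829), with a 25% difference built into the test (adjusted p = 0.234), with the name number as a term (-0.52, adjusted p = 0.0757) and among libraries named 11 (-0.53, adjusted p = 0.112). Prr5, a partner of the mTOR complex that phosphorylates Akt, rose from 3.77 ± 0.414 to 6.43 ± 0.38 CPM (0.78, SE 0.14, adjusted p = 0.0102). The Prr5 call was lost with the built-in difference (adjusted p = 0.0714) and among libraries named 11 (0.73, adjusted p = 0.0611).

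Among 24 tested FoxO factors and FoxO targets, 2 fell and 1 rose, with a median of -0.18. Pdk4, which restrains glucose oxidation and is also induced by fatty acids, fell from 367 ± 40.6 to 131 ± 33.8 CPM (-1.48, SE 0.17, adjusted p = 0.000817). Cat, the peroxide-degrading enzyme catalase, fell from 141 ± 8.92 to 78.2 ± 3.52 CPM (-0.85, SE 0.09, adjusted p = 0.000594). Bnip3, a mitophagy receptor that low oxygen also induces, rose from 88.4 ± 7.74 to 191 ± 26 CPM (1.11, SE 0.12, adjusted p = 0.000628). These 3 kept their calls in all 20 alternative analyses. Foxo4 was at -0.08 (adjusted p = 0.731).

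**Figure D5:**
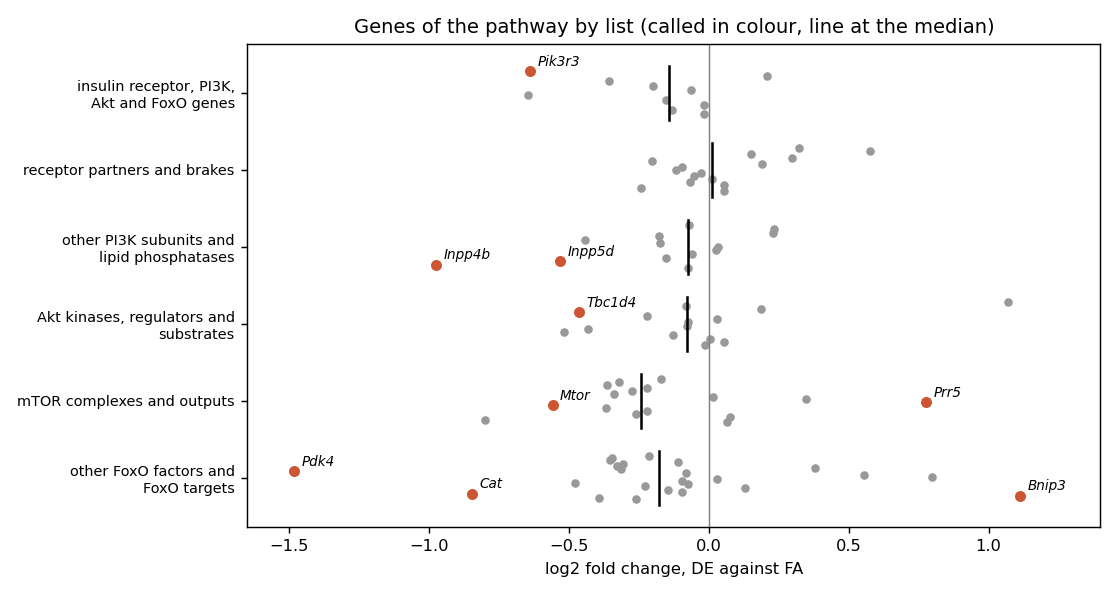
Log2 fold change of DE against FA for each tested gene of the pathway, by list, with called genes in colour and named and a vertical line at each list's median. Pdk4 and Bnip3 lie farthest out, and most genes of each list lie within 0.5 of 0.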

How the data were processed

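RNA-seq counts of 8 NCM libraries were used. The authors made poly-A stranded libraries, aligned reads to mm10 with TopHat and Ensembl v67, marked duplicates with Picard, realigned with GATK and counted with featureCounts; the authors deposited unnormalised counts, by Entrez gene. The strand setting, the treatment of reads mapping to several places and the counting annotation are not given in the sources used here. Counts of paralogs and overlapping genes are therefore uncertain. Suspected duplicates were marked but kept in the alignments, and whether they were counted is not given. If they were counted, counting precision is overstated. The study's methods state 3 samples per group, and the table's 4 per group were all used. Symbols matched for 25275 of 27179 genes.

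Genes were kept with filterByExpr (minimum count 10), scaled by TMM and tested with edgeR 4.0.16 (glmQLFit, glmQLFTest; R 4.3.3) in a model holding exposure alone, and p-values were adjusted by Benjamini-Hochberg over 14966 genes. Of these, 868 were called (332 lower, 536 higher). CPM uses the same factors. Levels per length used the union of exons. Ratios were compared with exact two-sided permutation tests. Alternatives used DESeq2 1.42.0, voom from limma 3.58.1, a likelihood ratio test, a 25% difference built into the test, RLE, upper-quartile or total scaling, no filter or a minimum of 1 CPM, the name number as a term, the libraries named 11 only, length and GC offsets (13851 genes), and leaving out each library; the script was tested on simulated data.

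The members and gene lists were chosen with earlier results of these data known. Named genes were all members, up to 8 called genes per list, 12 related genes and the 3 genes most like each called member; of these, 3 are not reported here. Besides the marker lists given in the results, summed levels were 868 to 1167 CPM in FA and 916 to 1360 CPM in DE for endothelial, 1053 to 1685 and 744 to 1080 for smooth muscle and pericyte (86 to 134 and 80.2 to 159 without Acta2), 429 to 1023 and 674 to 1123 for erythroid, 0.395 to 0.934 and 0.514 to 2.30 for adipocyte, 1.02 to 2.07 and 1.71 to 3.17 for hepatocyte, and 509.7 to 1279 and 501 to 781 for atrial markers (152 to 326 and 222 to 339.8 without Nppa).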

Additional observations from a re-analysis of the deposited data

Results flagged for a closer look

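The Pik3r3 level of FA replicate 3, 51.7 CPM, stood apart from the other FA libraries, which lay between 62.4 and 63.1 CPM. Its gap to the nearest library, divided by the range of the group, was above Dixon's 95% critical value for 4 libraries. Of 30 groups tested in this way, 1 passed, and chance flags about 1 in 20. Without it the log2 fold change of Pik3r3 was -0.71 (edgeR adjusted p = 0.0153).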

How the results depend on the processing

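No paired analysis was possible because the groups compared share fewer than 2 replicate numbers. The count of the 10 genes called (1) became 2 with DESeq2, the likelihood ratio test, voom, upper-quartile scaling and no filter, 3 with length and GC offsets, and 0 with a 25% difference built into the test, with the name number as a term and with libraries named 11 only; leaving out 1 library gave 1 to 2 (2 without FA replicate 6 or DE replicate 1). The count of other pathway genes called (8) became 13 with DESeq2, 15 with offsets, 3 with the built-in difference and 5 with libraries named 11, and 4 to 10 leaving out 1 library (4 without FA replicate 2, FA replicate 4, DE replicate 3 or DE replicate 5). Over all genes the 868 calls became 114 with the built-in difference, 1603 with the likelihood ratio test, 1618 with DESeq2, 448 with the name number, 260 with libraries named 11, 1553 with offsets and 237 to 1168 leaving out 1 library; scaling by totals alone called 217 lower and 803 higher, against 332 and 536, and moved the median of all genes to 0.0755. Among libraries named 11 the log2 ratio difference was -0.047 for Irs1/Irs2, -1.041 for Pik3r3/Pik3r1 and -0.187 for Foxo1/Foxo3; Akt2/Akt1 was 0.01 with offsets, and leaving out 1 library gave -0.005 to 0.277 for Irs1/Irs2 and -0.905 to -0.744 for Pik3r3/Pik3r1. Akt2 per length was 65.9 with the longest transcript, an alternative chosen after seeing the data.

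Log2 fold changes that passed no threshold turned sign as follows. With the name number as a term, Irs1 was 0.162, Irs2 0.173, Foxo1 0.102, Foxo3 0.28, Igf1r 0.261 and Gsk3b 0.056; with libraries named 11 only, these were 0.158, 0.169, 0.098, 0.276, 0.257 and 0.052. With offsets, Irs1 was 0.083, Foxo1 0.142, Igf1r 0.128, Gsk3b 0.039 and Slc2a4 -0.054. With totals, Irs1 was 0.003, Akt1 0.056, Foxo1 0.053 and Igf1r 0.013; with the upper quartile, Akt1 was 0.01 and Foxo1 0.008, each below the median of all genes in its setting (0.0755 and 0.0294). Leaving out 1 library gave -0.174 to 0.046 for Irs1, -0.068 to 0.03 for Akt1, -0.111 to 0.047 for Foxo1, -0.429 to 0.016 for Foxo3, -0.198 to 0.073 for Igf1r, -0.105 to 0.077 for Pik3cb and -0.036 to 0.052 for Slc2a4. The cause of these moves was not tested. Insr, Pik3r1, Pik3r3, Pik3ca and Akt2 kept their direction in all 20 alternatives. With 4 libraries per group, the intervals of Irs2 and Foxo3 were the widest among the 10 genes, wide enough to hold a 25% difference either way.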

Other observations

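Some pathway genes outside the naming rule, chosen after their values were seen, came near the threshold. Klf15, a transcription factor of fasting metabolism, averaged 11.3 CPM after FA and 19.6 CPM after DE (log2 fold change 0.80, edgeR adjusted p = 0.0565), and every DE library was above every FA library. Klf15 passed in 7 of 20 alternative analyses, among them DESeq2, the name number as a term and the libraries named 11 only. Klf2, a FoxO target, was at 23.5 and 34.5 CPM (0.56, adjusted p = 0.058), also without overlap, and passed in 5 of 20. Trib3, a pseudokinase that binds Akt, was at 3.52 and 7.27 CPM (1.07, adjusted p = 0.0798), with DE replicate 5 the highest library at 12.5 CPM, and passed in 3 of 20. Rptor and Mlst8, partners of Mtor, were at log2 fold changes of -0.36 and -0.37 (adjusted p = 0.0864 and 0.0798), and passed in 3 and 2 of 20.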
